A study of Caenorhabditis elegans with 2 samples.

Results

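Long intergenic noncoding RNA (lincRNA) genes give rise to long transcripts that encode no protein and lie mostly between protein-coding genes. Such transcripts are usually made by RNA polymerase II, as messenger RNAs are, and for most of them in Caenorhabditis elegans no function is known. The transcription factor ETS-4 acts in fat metabolism and lifespan of the worm. It belongs to the ETS family, whose members bind DNA at sequences built around a GGA core followed by A or T. The lincRNA genes were taken by their biotype in the Ensembl annotation of assembly WBcel235, which is the build ce11 of the deposited files. This gave 194 of the 46890 annotated nuclear genes. A region was assigned to a lincRNA gene when its summit lay inside the gene or within 1000 bp upstream of its 5' end, together called the window.

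Chromatin immunoprecipitation with sequencing (ChIP-seq) was done on whole, synchronised young adults (73 h, grown from larvae starved after bleaching) with males and females pooled, in 2 biological replicates, the only group. All animals were of strain RAF1713. The insertion rrrSi400 on chromosome II of that strain holds ets-4 with a C-terminal GFP tag, flanked by the promoter and the 3' UTR of ets-4 itself, and unc-119(+), in an unc-119(ed3) background. The labels' description gives an anti-GFP antibody while their antibody field reads ets-4, and the tag is called both eGFP and GFP-FLAG. A control file entered the authors' calls, but no tag-free precipitate was analysed here. Whole animals were used, so strong enrichment in few cells and weak enrichment in many cannot be told apart.

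The measurements are 4 lists of regions, each with the authors' signal value, which is compared only within a list. Each replicate had 30000 candidate regions, and so had the list pooled from both, which by its name holds peaks and background. The list thresholded on the irreproducible discovery rate (IDR) held 1102 regions, called IDR peaks here. They are the top 1102 of the pooled list by signal, so membership does not by itself show a high rank in each replicate. The number of reads is unknown, and no counting error of a signal value can be given. Intervals below are 95% Wilson intervals on shares and cover counting error only. With 1 group there was no contrast to test.

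Of the 194 lincRNA genes, 14 had an IDR peak, each a different region with its own gene. This is 7.22% (4.35 to 11.7%) of the lincRNA genes, against 4.22% of 19973 protein-coding genes and 2.97% of all annotated genes. With the 1102 strongest regions of replicate 1 in place of the IDR list the share was 6.19% (3.57 to 10.5%) against 4.34%, an interval that includes the protein-coding share, and with those of replicate 2 it was 7.73% (4.74 to 12.4%) against 4.30%. The strongest was at linc-128 (signal 275.8, rank 11 of 1102). It was followed by linc-90, linc-69, linc-91 and linc-142, with signals from 119.0 to 132.1. The remaining 9 genes, linc-44, linc-119, linc-78, M04F3.7, linc-103, linc-100, linc-54, linc-138 and K07C10.8, had signals from 80.8 to 109.9. The median over the 14 peaks was 103.8, close to the 102.4 of all IDR peaks. The other 13 peaks had ranks from 226 to 1060, and 9 of the 14 genes had their peak among the 551 strongest.

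**Figure D1:**
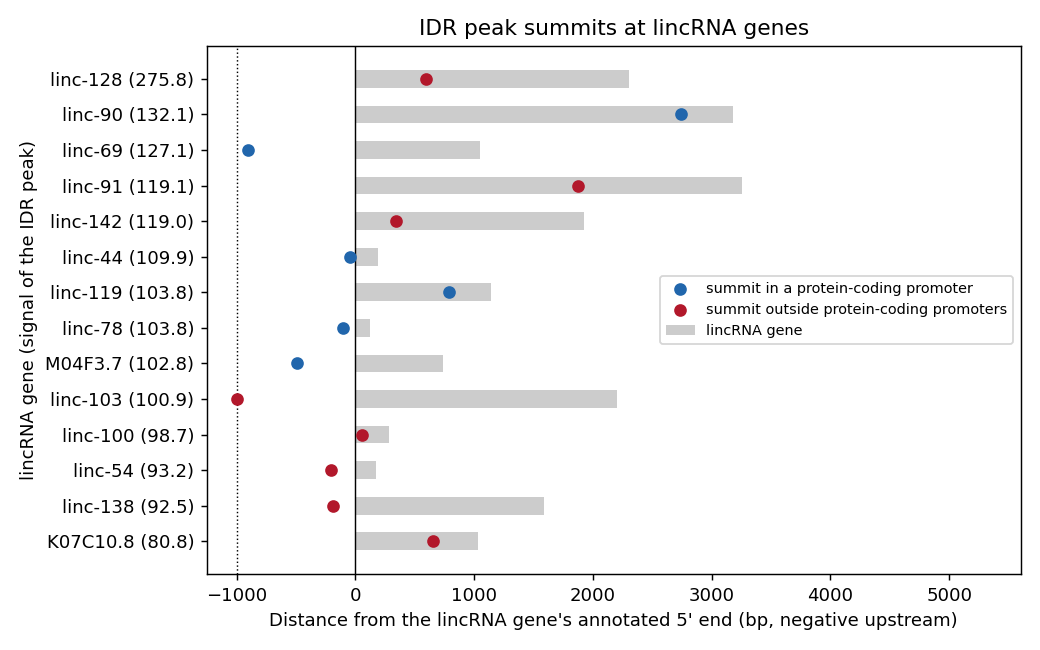
Position of the IDR peak summit at each of the 14 lincRNA genes with one, as distance in bp from the gene's annotated 5' end (solid line), with the upstream limit of 1000 bp dotted. Grey bars are the genes drawn from their 5' end, ordered by signal (in brackets); 7 summits lay upstream and 7 inside the gene, and 6 summits (blue) were also in a protein-coding promoter.

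The reference sequence at or near the summits is shown for 6 of the 7 strongest of these peaks, and for linc-138. The latter was added after its values were seen, as a further peak with a GATA sequence. The peaks not shown had no ETS or GATA sequence within 50 bp of the summit. Those shown therefore over-represent peaks with such a sequence. Each stretch is 30 bases from RefSeq's WBcel235 sequence, and those of linc-44, linc-119 and linc-138 do not include the summit. Capitals mark the ETS sequence CCGGAT or the GATA-factor sequence TGATAA nearest the summit, where 1 lay within 50 bp of it, and the stretch is then written on the strand that reads this sequence. Stretches all in lower case are centred on a summit with neither sequence within 50 bp. They lie at chrV:1151482-1151511 (plus strand), chrIII:354946-354975 (plus), chrV:8768630-8768659 (minus), chrX:12518679-12518708 (minus), chrII:5782127-5782156 (minus), chrIV:10236277-10236306 (minus) and chrII:6615420-6615449 (plus), in the order given.
linc-128: atagaagagagtgtgcggagcgtgcgcatt
linc-90: ccgtcaagcggtgctctgtgtctctccgct
linc-69: aatcttgactagTGATAAgaaaaattggcg
linc-142: ttcccgagtcttCCGGATcaatcgagagat
linc-44: ccctaacatttcCCGGATccccgcgacgat
linc-119: gagcttgaaaatTGATAAgaaagtggaagt
linc-138: gacatcgaatgcTGATAAaagcaaccaaga

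Among the peaks inside a lincRNA gene, that of linc-128 (V, 1150906 to 1153207, plus strand, 1 annotated exon) stood highest in every list. Its region was narrow, 193 bp (V, 1151366 to 1151558), with the summit in the exon at 591 bp from the 5' end. Its signal was 112.9 in replicate 1 and 162.4 in replicate 2, and it had rank 11 in both. The nearest protein-coding 5' end was that of the calmodulin gene cmd-1, with the summit at -4774 bp from it. No other annotated gene overlapped the region, so the first of the sequences above belongs to linc-128 alone in this annotation.

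The second, linc-90 (III, 352222 to 355402, plus strand), carried its peak in an intron at 2739 bp from the 5' end (354776 to 355145). Replicate 1 gave it a signal of 41.0 (rank 769) and replicate 2 of 95.4 (rank 132). This summit was also at -161 bp from gei-4, which is read in the opposite direction and overlaps linc-90, so the annotation places it in the promoter of gei-4 and in the far part of linc-90. At linc-91 (I, 4699610 to 4702866, plus strand) the summit lay in the exon, 1872 bp from the 5' end (4701297 to 4701666). The replicates gave signals of 50.2 (rank 366) and 74.2 (rank 316). From the nearest protein-coding 5' end, of the chromatin-remodeller gene chd-7, the summit was at -2907 bp.

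At linc-142 (X, 12517114 to 12519034, minus strand) the summit was in the exon at 342 bp (12518507 to 12518876). The signals were 45.8 (rank 519) and 72.1 (rank 353). The gene overlaps scd-1 on the same strand, and the summit is in an intron of that gene, so the word intergenic does not describe linc-142. Its 101 bp around the summit held an ETS sequence, CCGGAT, centred 2 bp from the summit, and a TGATAA. The peak of linc-119 (IV, 10235539 to 10236680, plus strand) was in the exon at 785 bp (10236139 to 10236508). Its signals were 33.7 (rank 1508) and 67.2 (rank 445), so only replicate 2 had it among its 1102 strongest. The summit was also in the promoter of ech-9, a gene of the enoyl-CoA hydratase family, at -995 bp, and linc-119 overlaps ech-8 of the same family on the opposite strand.

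The other peaks within a gene were at linc-100 and K07C10.8. In linc-100 (X, 16775220 to 16775505, minus strand) the summit was in the exon, 55 bp from the 5' end (16775265 to 16775634), with signals of 29.0 (rank 2651) and 64.5 (rank 507). The nearest protein-coding gene was 4617 bp from linc-100. In K07C10.8 (II, 11166676 to 11167706, plus strand) it was in an intron at 650 bp (11167141 to 11167510), with signals of 28.7 (rank 2753) and 52.2 (rank 968). This region also held the snoRNA gene K07C10.2 and the short noncoding genes K07C10.3 and K07C10.6. Both peaks ranked high in replicate 2 and not in replicate 1.

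Upstream of the gene, 7 peaks had summits from -49 to -998 bp. Nearest to its gene was that of linc-44 (II, 5781921 to 5782113, minus strand; region 5781977 to 5782346), with signals of 50.1 (rank 369) and 57.7 (rank 749). It was also at -358 bp from K05F1.6, which is read in the other direction, and the region held a tRNA gene and the noncoding gene F10C1.16. Its CCGGAT lay 20 bp from the summit. At linc-78 (X, 2243115 to 2243239, plus strand; region 2242824 to 2243193) the summit was at -106 bp, with signals of 38.2 (rank 986) and 54.3 (rank 873). The same summit was at -391 bp from rpl-11.2, a gene of the large ribosomal subunit on the opposite strand. linc-78 overlaps AH9.1, also on the opposite strand, and the region held the noncoding gene AH9.7.

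The summit of linc-138 (II, 6615646 to 6617232, plus strand; region 6615271 to 6615640) was at -190 bp, with signals of 35.4 (rank 1304) and 62.7 (rank 554). This gene overlaps klf-3 on the same strand. klf-3 encodes a Krüppel-like factor that acts in fat storage, and the summit was at -1422 bp from its 5' end. Upstream of linc-54 (X, 14505700 to 14505868, minus strand; region 14505893 to 14506262) the summit was at -210 bp. The signals were 21.1 (rank 7682) and 73.4 (rank 329), so the peak ranked high in replicate 2 and not in replicate 1.

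M04F3.7 (I, 4768331 to 4769063, minus strand; region 4769368 to 4769737) was the one peak ranked high in replicate 1 alone, with signals of 63.4 (rank 163) and 29.6 (rank 5404) and the pooled summit at -490 bp. The summits of the replicates differed there, that of replicate 1 lying 121 bp from the pooled one, the largest such shift among these peaks. Of the stretches of 50 bases in this region 71.7% occurred once in the genome, against 100% at the other 13 peaks. Whether this bears on the difference between the replicates was not tested. The same summit was at -739 bp from rpa-2, which encodes a subunit of replication protein A.

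At linc-69 (V, 8766699 to 8767745, minus strand; region 8768468 to 8768837) the summit was at -908 bp, with signals of 61.6 (rank 190) and 69.0 (rank 408). It lay nearer to B0507.3, at -256 bp from that gene. A further and stronger IDR peak (8769148 to 8769517, signal 141.8) lay at -1588 bp from linc-69 and thus outside the window. It was the one IDR peak between 1000 and 2000 bp upstream of any lincRNA gene. Just inside the limit was linc-103 (X, 6256778 to 6258976, plus strand; region 6255595 to 6255964), at -998 bp, with signals of 29.4 (rank 2513) and 75.6 (rank 298). Its replicate 1 summit was at -93 bp from the pooled one, further upstream and so outside the window. The nearest protein-coding gene was 4672 bp from linc-103.

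Of the 14 peaks, 13 overlapped one of the 1102 strongest regions of replicate 2 and 8 one of those of replicate 1. These are 92.9% (68.5 to 98.7%) and 57.1% (32.6 to 78.6%), beside 80.5% and 66.97% of all IDR peaks, so the tilt to replicate 2 is also that of the whole list. Both replicates' strongest regions held 7 of the peaks, at linc-128, linc-90, linc-69, linc-91, linc-142, linc-44 and linc-78. Counted without the pooled list, 8 lincRNA genes (4.12%, 2.10 to 7.92%) had a summit from the strongest regions of each replicate in the window. The share of protein-coding genes was 2.49%, which lies inside that interval. The eighth lincRNA gene was linc-129, where the best ranks, 847 and 1009, were not at the same region.

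**Figure D2:**
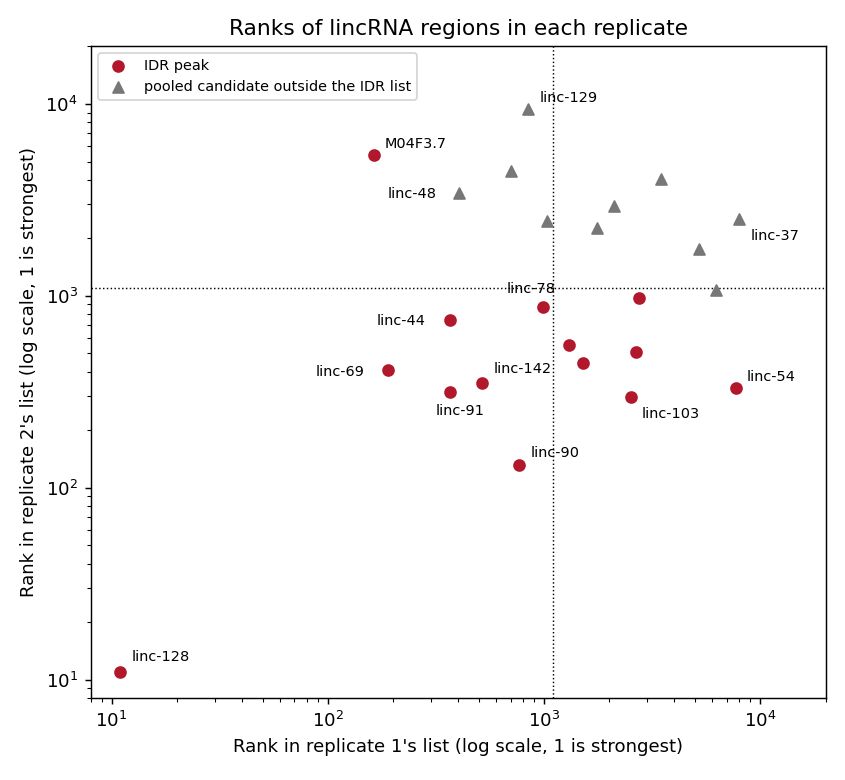
Rank of the region in replicate 1 (x axis) and replicate 2 (y axis), both on log scales with 1 the strongest, for the 14 IDR peaks at lincRNA genes (circles) and the 10 next pooled candidates (triangles). Dotted lines mark rank 1102; linc-128 stands apart at rank 11 in both lists, and M04F3.7 is the one IDR peak above the horizontal line.

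Protein-coding promoters, taken as 1000 bp upstream to 200 bp downstream of a 5' end, held 6 of the 14 summits, at linc-90, linc-69, linc-44, linc-119, linc-78 and M04F3.7. At these a peak belongs to both a lincRNA window and a protein-coding promoter, and the data do not assign it to either gene. The median signal was 106.9 for these 6 and 99.8 for the other 8. The summit was nearer to the lincRNA 5' end than to any protein-coding one at 12 of the 14. The exceptions were linc-90 and linc-69.

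The annotation only partly matches the name of the class. Of the 194 genes, 42 overlapped a protein-coding gene, 23 of them on the same strand. An IDR peak was present at 5 of these 42 (11.9%) and at 9 of the 152 others (5.92%). Both shares rest on few genes, no interval was computed for them, and their difference was not tested. Without the overlapping genes the ratio to the protein-coding share was 1.4, in place of 1.71. The 194 genes were short, with a median of 761 bp (101 to 6035 bp) against 2027 bp for protein-coding genes. A protein-coding window is therefore longer. Those with an IDR peak had a median length of 1094.5 bp and those without of 724.5 bp.

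Per length, lincRNA windows held 33.0 IDR summits per Mb and protein-coding windows 10.7, a ratio of 3.08 (95% exact Poisson interval of the lincRNA count, 1.68 to 5.17). Much of the sequence in protein-coding windows is gene body. In the 1000 bp upstream alone, which has the same length for every gene, 7 lincRNA genes (3.61%, 1.76 to 7.26%) had an IDR peak against 2.39% of protein-coding genes. This interval includes the protein-coding share. With protein-coding gene bodies taken out, a comparison added after the data were seen, lincRNA windows held 36.4 IDR summits per Mb (19.4 to 62.2), and all sequence outside protein-coding genes 17.7. In lincRNA gene bodies alone it was 28.2 (10.3 to 61.4), an interval that includes 17.7, and in lincRNA upstream windows 47.4 (19.1 to 97.7). Protein-coding upstream windows, with no sequence taken out, held 22.3, inside the interval of the lincRNA windows. The lincRNA windows cover 0.423% of the genome and held 1.27% of the IDR peaks, but 0.427% of the pooled candidates.

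Some noncoding classes had higher shares than the lincRNA genes. With the same window 21.7% of snoRNA genes (17.7 to 26.3%) and 14.5% of tRNA genes (11.97 to 17.6%) had an IDR peak. The interval of snoRNA genes lies above the one for lincRNA genes, and that of tRNA genes narrowly so. With the upstream part alone the tRNA share was 8.17% (6.25 to 10.6%), which overlaps the lincRNA interval, as it also does with the strongest regions of replicate 1 (10.8%, 8.57 to 13.5%). In the whole window the shares of snRNA genes (10.1%), antisense RNA genes (6.00%) and miRNA genes (5.75%) were within the lincRNA interval. Other ncRNA genes (3.35%), pseudogenes (0.846%) and piRNA genes (0.378%) were below it. In the upstream part alone snRNA genes (6.20%) and miRNA genes (5.36%) were above lincRNA genes (3.61%), but within their interval (1.76 to 7.26%). Small RNA genes often stand in clusters or within other genes, so 1 region can count for several of them. Here the 75 snoRNA genes with an IDR peak had 72 distinct summits, and the 89 such tRNA genes had 75. Per Mb of window there were 191 summits for snoRNA genes and 126 for tRNA genes, against 33.0 for lincRNA genes.

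**Figure D3:**
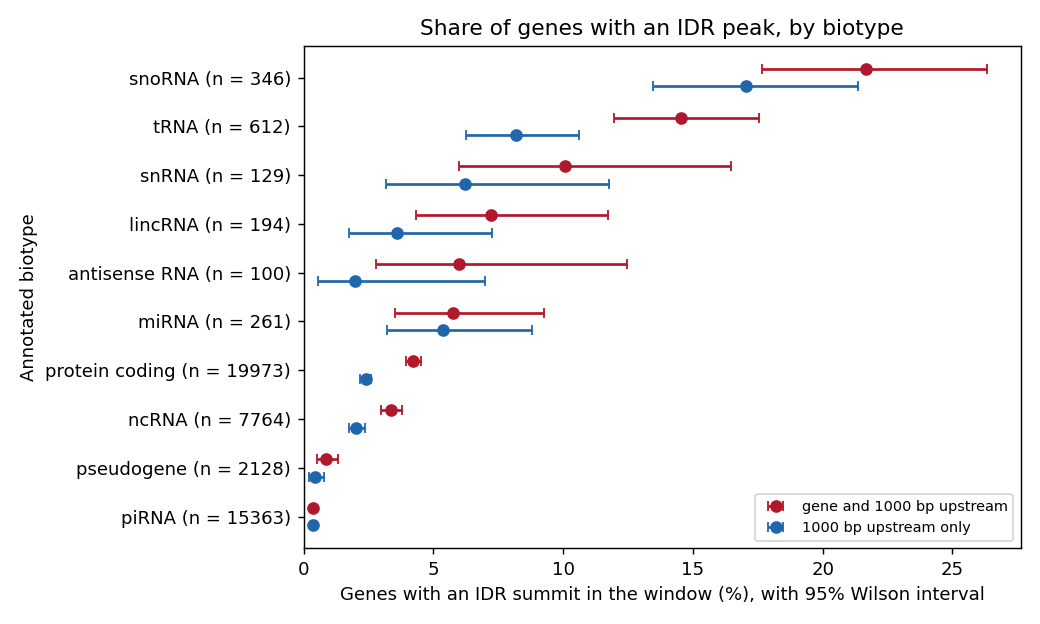
Share of genes with an IDR summit in the window (%, x axis) for each annotated biotype with at least 50 genes, with 95% Wilson intervals, for the gene with 1000 bp upstream (red) and the 1000 bp upstream alone (blue). lincRNA genes (7.22% and 3.61%) lie below snoRNA, tRNA and snRNA genes and above protein-coding genes, with an interval that includes the protein-coding share for the upstream window. In that window miRNA genes (5.36%) are also higher.

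Candidates of any strength were present at a smaller share of lincRNA than of protein-coding genes in the whole window, which is shorter for lincRNA genes, but not beyond counting error in the upstream part. In the pooled list 87 of 194 had a summit in the window (44.8%, 38.0 to 51.9%) against 62.0% of protein-coding genes, and 53 (27.3%, 21.5 to 34.0%) in the upstream part alone against 29.4%, which lies inside that interval. Per length the pooled list had 302 summits per Mb of lincRNA window and 329 of protein-coding window, and 320.1 and 326 in the upstream parts. No pooled summit was in the window of 107 lincRNA genes. With the 551 strongest pooled regions the lincRNA share was 2.13 times the protein-coding one, with 1102 it was 1.71 times, with 2204 it was 1.33 times and with 5000 it was 0.977 times. For the upstream part alone these ratios were 1.52, 1.51, 1.66 and 1.34, falling to 0.930 over all 30000. The lincRNA interval included the protein-coding share at 2204 and 5000, and for the upstream part at 551, 1102 and 5000. With only the 208 strongest the lincRNA share was the lower one, 0.515% (linc-128 alone) against 0.901%. For the upstream part it was then 0% against 0.576%. Among genes with any candidate, the median rank of the best one was 10106 for lincRNA genes and 10049 for protein-coding genes.

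**Figure D4:**
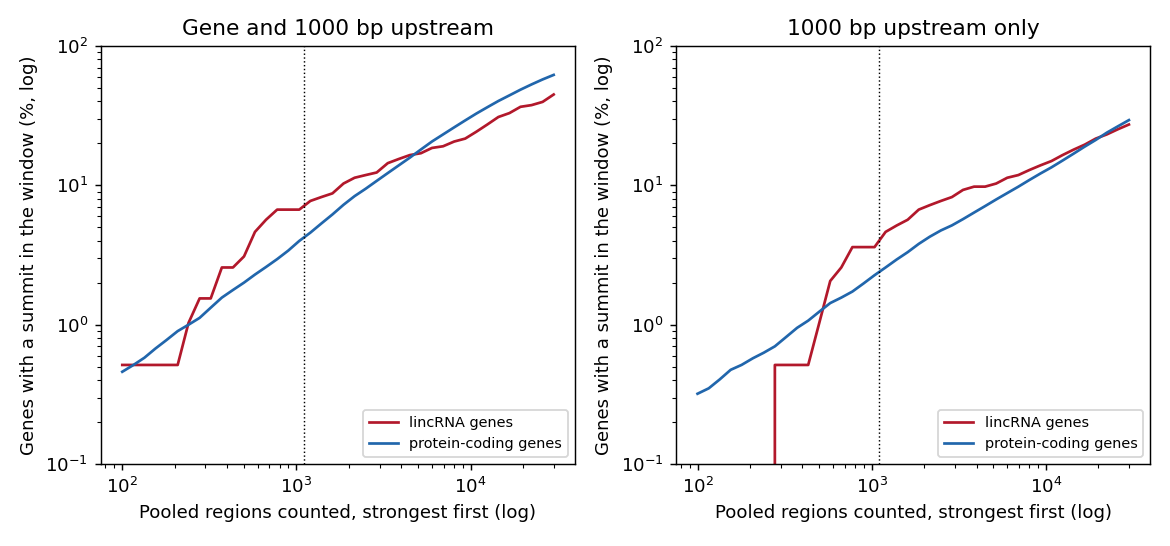
Share of lincRNA (red) and protein-coding (blue) genes with a summit in the window (%, log scale) as pooled regions are counted from the strongest down (log scale), for the gene with 1000 bp upstream (left) and the 1000 bp upstream alone (right), with rank 1102 dotted. In the left panel the lincRNA line is higher at rank 1102 (7.22% against 4.22%) and lower at the end (44.8% against 62.0%). It is also lower at rank 208 (0.515% against 0.901%).

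The 10 lincRNA genes with the highest pooled signal outside the IDR list were linc-27, linc-48, linc-49, linc-105, linc-125, linc-129, linc-108, linc-37, K09A9.12 and linc-112. Their pooled ranks ran from 1172 to 2637 and their signals from 77.9 down to 58.6. The regions of linc-27 (II, 6370185 to 6370554) and linc-48 (X, 17420819 to 17421188) shared the ceiling of the q value with the IDR peaks. Several of the 10 lay at genes of known function. The summit for linc-27, at -493 bp, was also in the promoter of lin-23, a gene of a ubiquitin ligase F-box protein (signals 37.9, rank 1028, and 38.5, rank 2436). That for linc-48, at -883 bp, was inside osm-11, 578 bp from its 5' end (48.9, rank 406, and 34.3, rank 3424). That for linc-49 (II, 5235821 to 5236190), at -23 bp, was in the promoter of pho-1, an intestinal acid phosphatase gene (32.4, rank 1760, and 39.7, rank 2250).

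For linc-108 (V, 15566563 to 15566932) the summit at -323 bp was also in the promoter of acs-2, an acyl-CoA synthetase gene of fatty acid oxidation (signals 31.0, rank 2099, and 36.2, rank 2939). At linc-125 (II, 7238142 to 7238511) it was 22 bp inside the aquaporin gene aqp-1 (22.7, rank 6212, and 50.1, rank 1074), and at linc-37 (III, 832822 to 833191) 25 bp inside zip-2, a bZIP factor gene of the response to infection (20.8, rank 8000, and 38.0, rank 2522). The summit for linc-37 was also in the promoter of ceeh-1. Of these 10 regions, 4 ranked within the 1102 strongest of replicate 1, at linc-48 (rank 406), linc-105 (706), linc-129 (847) and linc-27 (1028). Only linc-125 did so in replicate 2. None was among the strongest of both.

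lep-5, a lincRNA gene that acts in the timing of development (X, 12652591 to 12653520, minus strand), had no summit of the IDR, pooled or replicate 1 list in its window, and 1 of the replicate 2 list (signal 15.2, rank 27563 of 30000). The nearest pooled summit was at -2101 bp (rank 3406) and the nearest IDR peak at -7688 bp.

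By chromosome, 5 of the 38 lincRNA genes on X had an IDR peak (13.2%, 5.75 to 27.3%) and 9 of the 156 on the autosomes (5.77%, 3.06 to 10.6%). The intervals overlap. Protein-coding genes had the same order, 6.70% on X and 3.83% on the autosomes. The X genes were linc-142, linc-78, linc-103, linc-100 and linc-54. Candidates of any strength were present at 6 of 26 lincRNA genes on IV (23.1%) and 11 of 35 on V (31.4%), and at 48.3 to 55.8% of those on the other chromosomes. For protein-coding genes IV and V were also lowest (57.1 and 57.2%).

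Short sequences were searched on both strands in the 101 bp around each summit, and are descriptions of the reference. CCGGAA or CCGGAT, the ETS sequences, occurred at 2 of the 14 peaks (14.3%, 4.01 to 39.9%), linc-142 and linc-44, beside 4.81% of all IDR peaks and 7.46% of pooled regions outside the IDR list. In the windows centred 300 bp to each side of the 14 summits they occurred in 0 of 28 (Wilson upper bound 12.1%), and in 3.95% of those around all IDR peaks. GGAA, which CCGGAA contains and CCGGAT does not, occurred at 8 (57.1%), beside 55.5% and 66.1%. It was more frequent in the flanking windows, 64.3% for the 14 peaks and 63.6% for all IDR peaks. TGATAA, the GATA-factor sequence, was at 4 (28.6%, 11.7 to 54.6%), linc-69, linc-142, linc-119 and linc-138, beside 27.0% of all IDR peaks and 9.83% of the other pooled regions. In the flanking windows it was in 3 of 28 (10.7%) for the 14 peaks and in 10.1% for all IDR peaks. The forkhead sequence TGTTTAC was at linc-90 alone, beside 2.09% and 1.14%, and TGACTCA, of AP-1 type, at 0 of 14 (upper bound 21.5%), beside 1.72% and 1.05%. With 14 peaks each interval is wide, and for all these sequences it includes the share over all IDR peaks. Median GC content was 48.0% at these peaks, 46.5% at all IDR peaks and 42.6% at the other pooled regions.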

How the data were processed

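All 4 lists have the narrowPeak columns and are on ce11, per the labels. Per the text files deposited beside them, replicate and pooled lists came from alignments and a control file, while the IDR list came from such lists. The signal of a region is the authors' deposited value. The -log10 q value, also as deposited, has a ceiling shared by many regions (1393 in the pooled list) and was used only to mark them. Summit offsets were read as deposited. For aligner, caller, read depth and IDR threshold, the sources used here give nothing, so the precision of each region is unknown.

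Genes came from Ensembl release 115 and sequence from RefSeq, both WBcel235. No region ran past a chromosome end. Coordinates are 1-based. Mitochondrial genes were left out. Replicate regions were matched to a pooled region by an overlap of at least 1 bp, taking the strongest. Windows were merged before lengths were summed. No test was made: the design has 1 group. The replicates came from separate biosamples. Named genes were all with an IDR peak, the 10 next by pooled signal, and lep-5, tts-1 and rncs-1. Members, lists and rules were chosen with earlier results of these data known. Alternatives changed the window, the assignment, the list, the replicate and the sequences. The assignment of summits to windows was tested on simulated data. Tables were handled in Python 3.11.15 (pandas 2.3.3, numpy 2.4.6), intervals came from scipy 1.17.1 and plots from matplotlib 3.10.9.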

Additional observations from a re-analysis of the deposited data

How the results depend on the processing

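The count of 14 lincRNA genes with an IDR peak became 7 with the upstream part alone, 9 with the 551 strongest IDR peaks, 8 without peaks in protein-coding promoters and 9 without lincRNA genes that overlap a protein-coding gene. All of these use fewer regions, genes or bases by construction. Under the other alternatives it was 12 to 16, including 15 without replicate 1 and 12 without replicate 2. The ratio of shares to protein-coding genes (1.71) was between 1.36 and 2.51 in these alternatives. The 2.51 came without peaks in protein-coding promoters, which by construction takes away peaks counted for protein-coding genes. The next highest was 2.13, with the 551 strongest IDR peaks. The ratio per length (3.08) fell to 1.62 with the upstream part alone and was 2.06 to 4.12 otherwise, the lowest being that for sequence outside protein-coding genes, an alternative added after the data were seen. Counting each region once, also added then, left the count at 14. Counting further down the pooled list, as the report gives, takes the ratio of shares below 1 (0.977 at 5000 regions). With only the 208 strongest regions the lincRNA share was also the lower one (0.515% against 0.901%). Genes with a pooled candidate (87) fell to 53 with the upstream part alone and otherwise numbered 77 to 112. ETS sequences at 2 of 14 peaks became 8 with GGAA in their place, which CCGGAT does not contain. Genes with a region among the strongest of both replicates (8) became 4 with the 551 strongest of each, and 12 with 2 times as many regions. The 6 peaks in protein-coding promoters became 4 with narrower and 7 with wider promoters. Depth is unknown, so a lincRNA gene without a region cannot be called unbound.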

Other observations

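Further noncoding RNA genes with published functions, annotated as ncRNA and so outside the lincRNA class, had candidates outside the IDR list. At rncs-1, whose RNA inhibits Dicer in the worm (X, 1011501 to 1012347), a pooled region (1011063 to 1011432) had its summit at -253 bp with signal 69.4 and rank 1639. It had rank 695 in replicate 2 (signal 58.8) and 7120 in replicate 1 (signal 21.7). At tts-1, whose RNA is needed for the long life of insulin-receptor mutants (X, 1504131 to 1504841), the best region (1504757 to 1505126) was at -101 bp with signal 39.0 and rank 8726. Its ranks were 4356 in replicate 1 (signal 25.2) and 12729 in replicate 2 (signal 22.0). The nearest IDR peak was at -33055 bp from the 5' end of rncs-1 and at -36418 bp from that of tts-1, upstream of both.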
